A study of Mus musculus with 9 samples.

Results

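The Ly6 genes encode small surface proteins, and their RNA was followed here across 3 subsets of γδ T cells, which recognise antigen through a γδ rather than an αβ receptor. Genes were taken by name, Ly6c1, Ly6c2, Ly6a, Ly6e, Ly6d, Ly6g5b and Ly6k, each through its array row of highest mean among rows that carry its symbol alone. Such a row was found for 6 of these 7 genes, out of 22180 genes tested. Ly6a, which encodes Sca-1, had none and is not analysed here, and the row of its near namesake Ly6a2 was not taken in its place. The 9 arrays were Affymetrix Mouse Gene 2.0 ST, 3 for each subset, all from C57BL/6 mice with no further genotype or treatment in the labels. Peripheral lymph nodes were the source of the Naive-like and the Type-1 cells and the small intestine that of the IELs (intraepithelial lymphocytes), so tissue and subset cannot be told apart in a comparison with IELs. The antibodies listed in the labels include none against a Ly6 protein. The labels call the arrays biological replicates without saying if mice were pooled, and the p-values rest only on the spread between these samples.

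Ly6 proteins share a compact fold held by disulfide bonds, and most are tied to the cell surface by a glycosylphosphatidylinositol (GPI) lipid anchor in place of a membrane-spanning segment. On lymphocytes they serve mainly as markers of differentiation and activation. Ly6C, the product of Ly6c1 and Ly6c2, is carried by inflammatory monocytes, plasma cells and many memory T cells, and several family members are induced by interferons. In the mouse most Ly6 genes stand side by side on chromosome 15, where RefSeq lists 15 genes of that name, while Ly6g5b is one of 6 on chromosome 17.

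Promoter windows from RefSeq (GRCm38.p6, 250 bases before to 50 after the start) were listed for 3 of the 7 genes, Ly6c1, Ly6c2 and Ly6g5b. Those of the neighbouring copies Ly6c2 and Ly6c1 are shown because the Ly6c2 row passed all 3 comparisons below and the Ly6c1 row none. That of the next gene, Ly6a2, chosen after its values were seen, is shown with them. Ly6c1 and Ly6c2 have 2 listed starts each, of which the upstream one is given, and all 3 windows lie on the minus strand, at chr15:75111922-75112221 for Ly6c2, chr15:75048788-75049087 for Ly6c1 and chr15:75135079-75135378 for Ly6a2. Capitals mark matches to the TATA box (TATAAA), an ETS site (GGAAGT) or a RUNX site (TGTGGT) on either strand.
Ly6c2: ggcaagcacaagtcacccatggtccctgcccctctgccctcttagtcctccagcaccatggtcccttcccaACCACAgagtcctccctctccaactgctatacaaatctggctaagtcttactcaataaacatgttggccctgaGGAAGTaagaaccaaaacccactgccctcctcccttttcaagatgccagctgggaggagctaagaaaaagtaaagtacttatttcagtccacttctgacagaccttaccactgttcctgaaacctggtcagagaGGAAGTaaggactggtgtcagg
Ly6c1: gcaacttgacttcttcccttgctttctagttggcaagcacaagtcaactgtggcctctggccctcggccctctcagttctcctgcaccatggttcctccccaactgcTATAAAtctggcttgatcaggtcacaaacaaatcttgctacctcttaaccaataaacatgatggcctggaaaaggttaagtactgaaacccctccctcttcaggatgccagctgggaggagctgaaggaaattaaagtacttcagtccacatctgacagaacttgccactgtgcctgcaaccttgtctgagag
Ly6a2: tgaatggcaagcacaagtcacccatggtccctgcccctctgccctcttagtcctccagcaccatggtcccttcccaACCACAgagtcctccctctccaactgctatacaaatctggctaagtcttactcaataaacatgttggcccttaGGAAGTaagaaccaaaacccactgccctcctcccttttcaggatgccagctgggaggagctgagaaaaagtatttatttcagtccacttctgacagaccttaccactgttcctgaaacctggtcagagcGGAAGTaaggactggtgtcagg

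The Ly6c2 and Ly6a2 windows were identical at 290 of 295 aligned bases (98.3%), and those of Ly6c2 and Ly6c1 at 208 of 266 (78.2%). The TATA letters were found in the Ly6c1 window, beginning at -143 relative to the start, and not in those of Ly6c2 and Ly6a2. The ETS letters stood at 2 places in each of Ly6c2 and Ly6a2, and the RUNX letters once in each of these. The first ETS match began at -106 in Ly6c2 and -101 in Ly6a2, and the second lay after the start in both. Windows of the neighbours Ly6f and Ly6g, also chosen after their values were seen and not shown, each held the TATA letters. The ETS letters stood at 2 places in Ly6f and 1 in Ly6g, and the RUNX letters in neither. The Ly6c2 window was identical to theirs at 83.6% (Ly6f) and 80.7% (Ly6g) of aligned bases. Over 32851 windows of the same length, 13.6%, 23.8% and 16.8% held a TATA, ETS and RUNX match. A T-box half-site (GGTGTGA, present in 3.98% of windows), a STAT-type GAS site (TTCNNNGAA, 8.3%) and an interferon response element core (a pair of GAAA with 2 bases between, 3.44%) had no match in any of the 3 windows. These searches on both strands describe letters in 300 bases and do not bear on the binding of any factor. Whether array probes of such similar genes also take up RNA of a neighbouring copy was not tested.

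The values are log2 expression levels after RMA, the authors' normalization between arrays, and the levels of different genes cannot be compared, since each row has its own probes. The table has no detection calls; the median gene had a mean of 4.52, the highest value in the table was 13.5, and a member near the median has no stated background. The T-cell genes Cd3g, Cd3d and Cd3e, which encode CD3 chains of the receptor complex, lay between 10.06 and 12.32 on all 9 arrays. Of 30 genes of intestinal epithelium, such as Lgals4, Krt8 and Cdh1, 20 passed the test as higher in IELs relative to Naive-like cells and none as lower, and the list's mean level ran from 5.49 to 6.21 in IELs, 3.99 to 4.15 in Naive-like and 3.99 to 4.22 in Type-1 cells; its part in the differences of the Ly6 genes was not tested. Of 20 genes of monocytes, macrophages and neutrophils (C1qa, Lyz2 and Cebpe had the highest means) only Itgam differed in any comparison. In this list the mean level was 3.64 to 3.81 in IELs, 3.53 to 3.99 in Naive-like and 3.75 to 4.16 in Type-1 cells. The counts of genes higher and lower in IELs than in Naive-like cells were 2 and 1 of 9 for plasmacytoid dendritic cells (Bst2, Ccr9 and Tcf4 leading by mean), 1 and 1 of 16 for B and plasma cells (Ighm, Xbp1, Cd79b), 0 and 2 of 14 for endothelium and stroma (Pecam1, Eng, Col1a1), 3 and 1 of 9 for NK and innate lymphoid cells (Id2, Kit, Gata3) and 1 and 0 of 6 for the T-cell receptor complex. Over all genes 3.57% were called higher and 1.62% lower in IELs than in Naive-like cells, which also applies to the epithelial count. In Type-1 against Naive-like cells none of the epithelial, myeloid, B-cell or stromal genes passed the test, while 3 of 9 NK and innate lymphoid genes, Eomes and Klrb1c of a list below among them, were higher. In that comparison 1 of 9 plasmacytoid dendritic cell genes was lower (8 of 9 below 0, median -0.31), as was 1 of 6 genes of the T-cell receptor complex (6 of 6 below 0, median -0.34). Between these lymph node subsets 0.212% of all genes were called higher in Type-1 cells and 0.0721% lower.

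Ly6c2 ran from 3.54 to 12.38 over the 9 arrays, the widest range of the 6 genes. The IEL arrays read 3.89, 3.54 and 3.97, the Naive-like arrays 9.81, 9.54 and 9.96, and the Type-1 arrays 12.36, 12.38 and 12.35. No array of one subset overlapped with another, and the order from IELs through Naive-like to Type-1 cells held at each step. The Type-1 arrays differed by so little (SD 0.018, n = 3) that 0.356% of all genes had a smaller SD within that subset, where the median SD was 0.27; whether the signal neared the upper limit of the probes was not tested. In bulk RNA, fewer cells carrying a transcript and less of it per cell cannot be told apart.

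**Figure D1:**
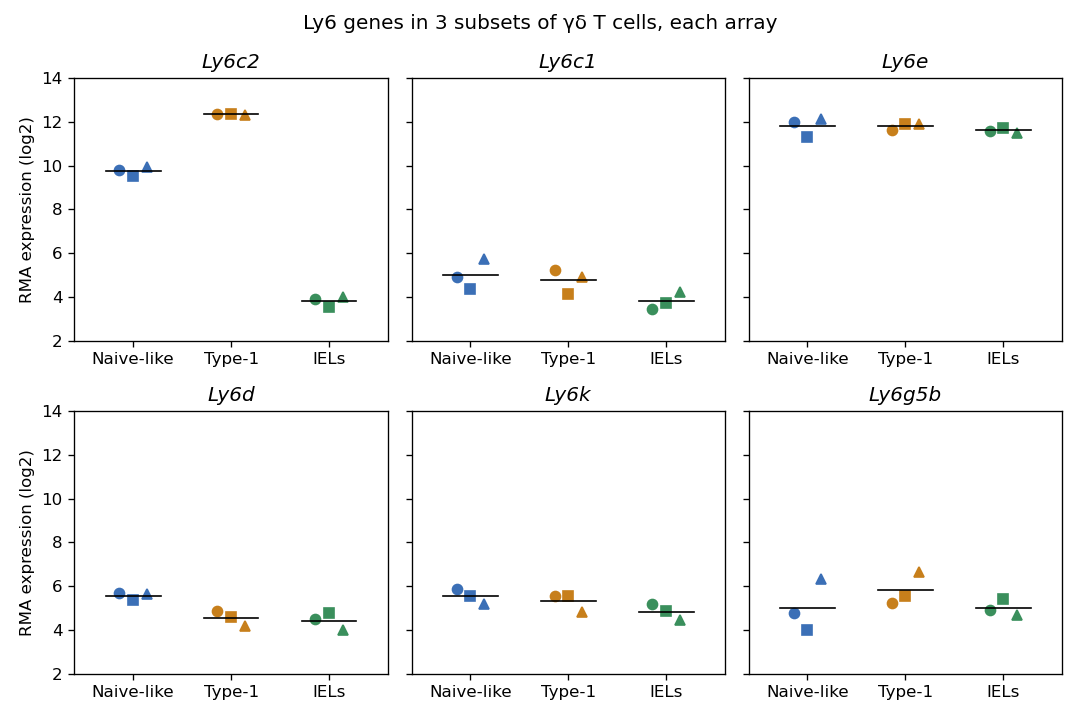
Log2 RMA expression (vertical axis) of 6 Ly6 genes on each array of the Naive-like, Type-1 and IEL subsets. Circles, squares and triangles are replicates 1, 2 and 3, and lines are means of 3 arrays; levels may be compared between subsets of a gene and not between genes. Ly6c2 runs from 3.54 to 12.38, while Ly6e stays between 11.31 and 12.15.

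Within the lymph node, Ly6c2 was higher in Type-1 than in Naive-like cells by 2.59 ± 0.20 (log2 difference ± standard error, n = 3 against 3), or 6.04-fold. Its adjusted p was 8.31e-05 in limma with Benjamini-Hochberg adjustment over all genes, and it ranked 13 from the highest of 22180 differences. Against these lymph node subsets, IELs were lower by 62.5-fold relative to Naive-like cells (95% interval of the log2 difference -6.39 to -5.54, adjusted p = 1.13e-08) and by 377-fold relative to Type-1 cells (-8.99 to -8.13, adjusted p = 3.07e-10). Both were the lowest of the differences over all genes tested. The IEL arrays read below 4.52, the median of gene means, where the background is not known, so these folds and intervals are ratios of measured signal and not exact ratios of RNA. Some arrays carry a date code in their description, replicate 3 of each subset, and the difference of Type-1 from Naive-like cells was 2.39 between the coded arrays and 2.70 between the others.

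The row of Ly6c1, the adjacent gene for the other form of Ly6C, showed no such steps. It lay between 3.42 and 5.73, around the median of gene means (4.52), where the background is not known. Whether Ly6c1 RNA itself lacks such steps therefore cannot be told. The Ly6c1 level was 3.42, 3.72 and 4.22 in IELs, 4.93, 4.37 and 5.73 in Naive-like cells and 5.23, 4.15 and 4.90 in Type-1 cells. The IEL arrays lay below all Naive-like arrays, while IEL replicate 3 overlapped with Type-1 cells. The difference of IELs from Naive-like cells was -1.22 ± 0.36 (adjusted p = 0.0871 in limma), from Type-1 cells -0.97 ± 0.36 (adjusted p = 0.188), and the lymph node subsets differed by -0.25 ± 0.36 (95% interval -1.04 to 0.54). None of these passed the threshold of 0.05. Without Naive-like replicate 2 the first was -1.54 and passed (adjusted p = 0.0383). A fit that included the date code gave it an adjusted p of 0.0393, and it measured -1.08 between the arrays without the code and -1.51 between those with it. The row of Ly6a2, on the far side of Ly6c2, read 4.99 ± 0.36 in IELs, 5.27 ± 0.37 in Naive-like and 5.89 ± 0.58 in Type-1 cells (SD, n = 3) and passed no comparison in limma (lowest adjusted p = 0.146).

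Ly6e, an interferon-inducible gene whose product affects virus entry, was the most even member. The IEL arrays read 11.61, 11.74 and 11.51, the Naive-like arrays 12.02, 11.31 and 12.15, and the Type-1 arrays 11.65, 11.93 and 11.92. All 3 subsets overlapped. The means were 11.62, 11.83 and 11.83, and no neighbours in that order differed beyond their spread. The intervals bound the differences at -0.71 to 0.31 for IELs minus Naive-like, -0.72 to 0.30 for IELs minus Type-1 and -0.51 to 0.51 for Type-1 minus Naive-like cells. Naive-like replicate 2 was the lowest of the 9 arrays, and between the date-coded arrays IELs differed from Naive-like cells by -0.63 against 0.01 between the rest.

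Ly6d, known as a marker of lymphoid progenitors that lean towards the B-cell fate, was highest in Naive-like cells. Its values there were 5.68, 5.35 and 5.65, against 4.86, 4.57 and 4.16 in Type-1 cells and 4.47, 4.79 and 3.98 in IELs. The Naive-like arrays stood above all others, and those of Type-1 cells and IELs overlapped. The means of IELs (4.41) and Type-1 cells (4.53) lay near the median of gene means (4.52), where the background is not known. IELs were lower than Naive-like cells by a log2 difference of -1.14 ± 0.25, which passed the limma test (adjusted p = 0.0183). The difference of Type-1 from Naive-like cells, -1.03 ± 0.25, did not pass (adjusted p = 0.225), and IELs and Type-1 cells differed by -0.12 ± 0.25 (adjusted p = 0.869, 95% interval -0.67 to 0.43). The call rested on single arrays: in limma the adjusted p was 0.0902 without IELs replicate 3, 0.0852 without Naive-like replicate 1 and 0.0726 without Naive-like replicate 3. It was also lost when arrays with the code were left out (-0.88, adjusted p = 0.18), while the coded arrays alone gave -1.67, and when every row of the table was fitted (adjusted p = 0.0671).

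Ly6k, a gene of the testis needed for sperm function in mice, has 2 rows on the array. The row used read 5.17, 4.86 and 4.47 in IELs, 5.89, 5.54 and 5.18 in Naive-like cells and 5.53, 5.54 and 4.83 in Type-1 cells. The IEL arrays lay below the Naive-like arrays by a narrow margin, and both subsets overlapped with Type-1 cells. The difference of IELs from Naive-like cells was -0.70 ± 0.27 (adjusted p = 0.227 in limma, and 0.0448 in a fit that included the date code). The second row went the other way, with a difference of 0.25 ± 0.28, and the mean of both rows differed by -0.23 (adjusted p = 0.829).

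Ly6g5b, one of the family's genes in the major histocompatibility complex region, varied more within subsets than between them. It read 4.90, 5.40 and 4.70 in IELs, 4.76, 3.98 and 6.32 in Naive-like cells and 5.24, 5.54 and 6.64 in Type-1 cells. In both lymph node subsets the date-coded replicate 3 was the highest array, while in IELs it was the lowest. The SD of 1.19 among Naive-like arrays exceeded that of 99.7% of genes. IELs differed from Naive-like cells by -0.02 ± 0.51 over all arrays, by 0.78 between the arrays without the code and by -1.63 between those with it. The differences of Type-1 from Naive-like cells (0.78 ± 0.51) and of IELs from Type-1 cells (-0.81 ± 0.51) did not pass either.

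**Figure D2:**
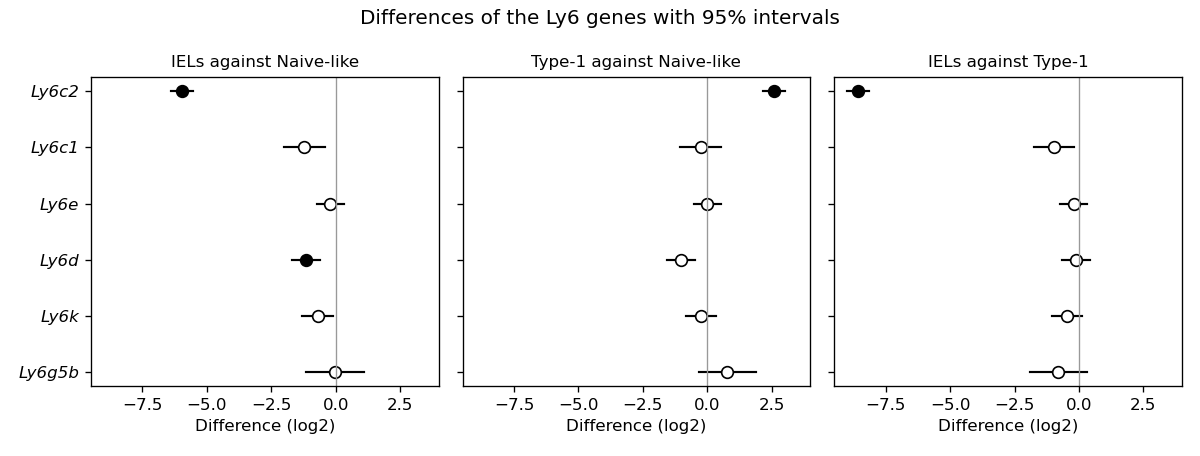
Log2 differences (horizontal axis) of 6 Ly6 genes in the 3 comparisons, with 95% intervals from limma over 9 arrays. Filled points passed an adjusted p of 0.05: Ly6c2 in all 3 comparisons and Ly6d in IELs against Naive-like cells. The axis is the same in each panel.

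By count, 2 of the 6 genes, Ly6c2 and Ly6d, were lower in IELs than in Naive-like cells and none higher, where 5.19% of all genes were called in either direction, 3.57% as higher and 1.62% as lower. In Type-1 against Naive-like cells 1 of 6 was called, Ly6c2 as higher, against 0.284% of all genes (0.212% as higher and 0.0721% as lower), and in IELs against Type-1 cells 1 of 6, Ly6c2 as lower, against 5.14% (3.73% as higher and 1.41% as lower). Arrays of the 2 subsets did not overlap for 4, 2 and 1 of the 6 genes in the order given, where this held for 20.1%, 11.4% and 19.8% of all genes. The median difference of the 6 genes was -0.92, -0.12 and -0.64, beside -0.01, 0.03 and -0.03 over all genes. The first of these medians lies between Ly6d (-1.14), whose call rested on single arrays, and Ly6k (-0.70), which was not called. The second row of Ly6k went the other way (0.25). As the genes were chosen with earlier results of these data known, no shift of the family is read from the medians. An F test over the 3 subsets called Ly6c2 (adjusted p = 1e-09) and Ly6d (adjusted p = 0.0274), against 5.41% of all genes. These comparisons share arrays, so their counts are not independent.

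Of 35 measured genes of the Ly6/uPAR family other than the members, 1 was higher and 1 lower in IELs than in Naive-like cells, none differed between Type-1 and Naive-like cells, and 1 was higher in IELs than in Type-1 cells. With 5.19%, 0.284% and 5.14% of all genes called in these comparisons, the first count is near the share over all genes and nothing is read from the others. Lypd8, whose product coats the epithelium of the large intestine and holds off bacteria, read 7.17, 8.41 and 6.71 in IELs, 4.23, 4.93 and 4.37 in Naive-like and 4.37, 4.24 and 4.34 in Type-1 cells. It was higher in IELs by 2.92 ± 0.36 and 3.12 ± 0.36 (limma adjusted p = 0.000294 and 0.000211), beside the epithelial genes given above, whose part in it was not tested. Plaur, which encodes the urokinase receptor, read 5.69, 6.00 and 6.61 in Naive-like cells, above 4.44, 4.67 and 5.13 in IELs and 4.75, 4.51 and 5.29 in Type-1 cells. It was lower in IELs by -1.35 ± 0.29 (limma adjusted p = 0.0154), a call lost without IELs replicate 1, IELs replicate 2 or Naive-like replicate 3, while Type-1 cells differed from Naive-like cells by -1.25 ± 0.29 (adjusted p = 0.179). Lypd6b and Spaca4, with Lypd8 and Plaur the rows of highest mean in this list, had subset means of 5.20 to 6.11 and 4.98 to 5.35 and passed no comparison.

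Of 27 measured genes for building and attaching GPI anchors none was called in IELs or Type-1 cells against Naive-like cells, and 1 was lower in IELs than in Type-1 cells, the acyltransferase gene Pigw (-1.12 ± 0.24), a call lost without IELs replicate 2, IELs replicate 3 or Type-1 replicate 1. Where none passed, the differences of largest size were those of Pign (0.82 ± 0.41) and Pigw (-0.76 ± 0.24) in IELs and of Pigh (-0.76 ± 0.51) and Pigo (-0.48 ± 0.31) in Type-1 cells. These counts are too small to set apart from the shares of all genes called, 5.19%, 0.284% and 5.14%. In the order of comparisons used for the counts above, the median differences were 0.12, 0.03 and 0.18.

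Other GPI-anchored proteins of lymphocytes went both ways in IELs. Of 20 measured genes 2 were higher and 4 lower than in Naive-like cells, none differed between the lymph node subsets, and 2 were higher and 5 lower than in Type-1 cells, with medians of -0.16, -0.02 and -0.08. Over all genes 3.57% were called higher and 1.62% lower in IELs than in Naive-like cells, and 3.73% and 1.41% than in Type-1 cells. Between the lymph node subsets 0.284% were called in either direction. Cd55, which restrains complement, read 3.53, 3.77 and 3.83 in IELs, 6.80, 7.16 and 7.27 in Naive-like and 6.89, 6.92 and 7.25 in Type-1 cells. Its differences were -3.37 ± 0.20 and -3.31 ± 0.20 in IELs, and Thy1, the pan-T-cell antigen of the mouse, followed at -2.58 ± 0.19 and -2.11 ± 0.19. Bst2, or tetherin, was lower in IELs than in Naive-like cells at -1.48 ± 0.19, and Izumo1r, the folate receptor 4 gene, was lower than in Type-1 cells at -1.51 ± 0.27. Nt5e, which encodes CD73, was higher by 2.70 ± 0.34 and 1.55 ± 0.34. Cd160 read 8.03, 7.56 and 7.84 in IELs, above 5.77, 5.57 and 5.98 in Naive-like and 6.29, 6.50 and 6.86 in Type-1 cells. Between Type-1 and Naive-like cells Nt5e differed by 1.15 ± 0.34 and Cd160 by 0.78 ± 0.22, neither passing the test. Leaving out IELs replicate 3 reduced the genes lower than in Type-1 cells from 5 to 3, and the 2 genes higher than in Type-1 cells were 1 without IELs replicate 2, IELs replicate 3 or Type-1 replicate 1.

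Interferon-inducible genes are a class to which Ly6e and Ly6C belong. Of 49 measured genes 18 passed as lower in IELs than in Naive-like cells and none as higher, where 1.62% of all genes were called lower, and 46 of 49 had a difference below 0 (median -0.81). Further, 2 were lower in Type-1 than in Naive-like cells (median -0.31), and 9 were lower in IELs than in Type-1 cells (median -0.44). Of all genes 0.0721% and 1.41% were called lower in these comparisons. The mean level of the list was 6.17 to 6.25 in IELs, 7.00 to 7.24 in Naive-like and 6.55 to 6.98 in Type-1 cells, so the arrays of the subsets did not overlap. The largest of the 18 was Iigp1, an immunity-related GTPase gene, at -3.44 ± 0.25, followed by Oasl2, Usp18 and Ifit1. It was 4.70, 4.04 and 4.57 in IELs, 7.51, 8.13 and 7.97 in Naive-like and 6.12, 6.60 and 6.19 in Type-1 cells. The order of Iigp1, with Naive-like cells above Type-1 cells, was thus the reverse of that of Ly6c2 in the lymph node, and Iigp1 and Igtp were the 2 genes lower in Type-1 cells (-1.57 ± 0.25 and -1.28 ± 0.22). Samhd1, a nucleotide hydrolase gene, was lower in IELs than in Type-1 cells at -2.03 ± 0.21. The count of 18 was 10 without any one of IELs replicate 2, IELs replicate 3, Naive-like replicate 2 or Naive-like replicate 3, 9 when every row was fitted and 5 when date-coded arrays were left out. The count of 2 fell to 0 without Naive-like replicate 2, Naive-like replicate 3 or Type-1 replicate 1 and to 1 when any other array but IELs replicate 1 was left out, where it was 2.

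**Figure D3:**
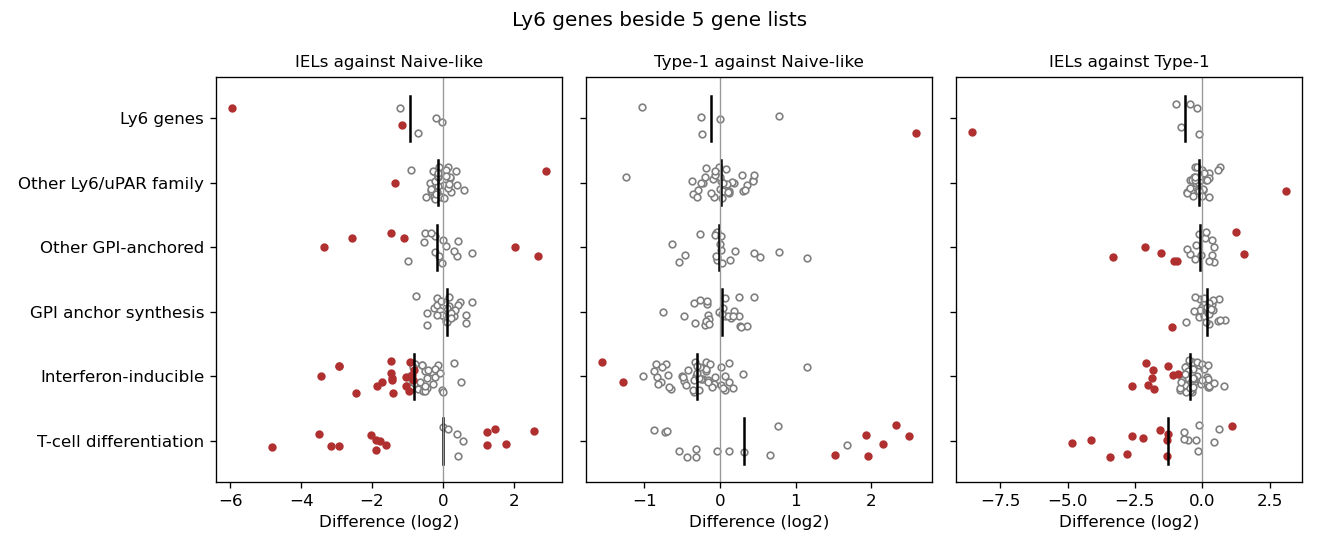
Log2 differences (horizontal axis, a separate scale in each panel) of the 6 Ly6 genes and of the genes of 5 lists in the 3 comparisons. Each point is a gene, red points passed an adjusted p of 0.05 in limma, vertical offsets within a row carry no value, and black bars are medians. The interferon-inducible genes have medians of -0.81, -0.31 and -0.44, and Ly6c2 lies apart from the other Ly6 genes.

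Ly6C is read together with other markers when T cells are staged. Of 19 measured genes for T-cell differentiation markers and their regulators, 5 were higher and 9 lower in IELs than in Naive-like cells, 6 higher and none lower in Type-1 than in Naive-like cells, and 1 higher and 10 lower in IELs than in Type-1 cells. In these comparisons 3.57%, 0.212% and 3.73% of all genes were called higher, and 1.62%, 0.0721% and 1.41% lower. In Type-1 against Naive-like cells the 6 higher genes were Klrb1c (2.50 ± 0.32), Il2rb (2.32 ± 0.33), Cd44 (2.16 ± 0.26), Tbx21 (1.95 ± 0.29), Cxcr3 (1.93 ± 0.18, named after its value was seen) and Eomes (1.52 ± 0.27). Of these only Eomes, a T-box transcription factor gene, was lower in IELs than in both lymph node subsets. Its values were 3.76, 4.13 and 4.27 in IELs, 5.75, 5.87 and 6.21 in Naive-like and 7.24, 7.10 and 8.05 in Type-1 cells, the same order of subsets as for Ly6c2, with no overlap. The related Tbx21, which encodes T-bet, was 7.55, 8.64 and 8.68 in IELs, 5.89, 5.50 and 5.78 in Naive-like and 7.66, 7.40 and 7.95 in Type-1 cells, so that IELs, lowest for Ly6c2, were not lowest for Tbx21. The order of Eomes was not particular to it: Il18r1 and Il7r of this list also kept it without overlap. Il18r1 ran from 3.69 to 3.86 in IELs, 6.65 to 7.28 in Naive-like and 7.90 to 9.33 in Type-1 cells. Il7r ran from 7.55 to 7.77, 9.51 to 9.93 and 10.08 to 10.86 in the same order. Neither was among the genes called higher in Type-1 than in Naive-like cells. S1pr1, Lef1, Il18r1 and Ccr7 had the largest differences of IELs from Naive-like cells, all lower, at -4.83 ± 0.33, -3.50 ± 0.25, -3.15 ± 0.31 and -2.94 ± 0.29. Fitting every row reduced the 6 to 2, and without the date-coded arrays 1 passed. The single gene higher in IELs than in Type-1 cells, Runx3, chosen after its values were seen, was no longer called without IELs replicate 2, IELs replicate 3 or Type-1 replicate 1.

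Across the 9 arrays, the profiles most like that of Ly6c2 were Ms4a4c (Pearson r = 0.991), Nsg2 (0.987), Il7r (0.986), Il18r1 (0.980) and S100a6 (0.978), out of 10984 genes compared. These correlations describe arrays that fall into 3 subsets and carry no test. All 5 genes repeat the order of subset means, IELs, Naive-like, Type-1, with smaller steps. Their choice by correlation with Ly6c2 over these same arrays largely sets that order, so nothing further is read from it. Ms4a4c, a tetraspanning membrane protein gene, averaged 3.39 ± 0.46, 6.89 ± 0.22 and 8.77 ± 0.20 (SD, n = 3), and S100a6, which encodes a calcium-binding protein, 5.08 ± 0.12, 9.03 ± 0.15 and 9.50 ± 0.21. Il7r, the interleukin 7 receptor gene, averaged 7.67 ± 0.11, 9.69 ± 0.22 and 10.46 ± 0.39. For Ly6d the closest were Slc6a19 (0.926), Dact3 (0.913), Ttll3 (0.896), Gipc3 (0.892) and Cfp (0.890). All 5 had their highest mean in Naive-like cells, which their choice by correlation with Ly6d largely sets. Ttll3 averaged 6.10 ± 0.22 in IELs, 7.12 ± 0.14 in Naive-like and 6.28 ± 0.11 in Type-1 cells. The closest, Slc6a19, averaged 4.33 ± 0.16 in IELs, 5.12 ± 0.35 in Naive-like and 4.54 ± 0.24 in Type-1 cells. Its means and those of Dact3 and Gipc3 (4.23 to 4.94) lay around the median of gene means (4.52), where the background is not known.

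**Figure D4:**
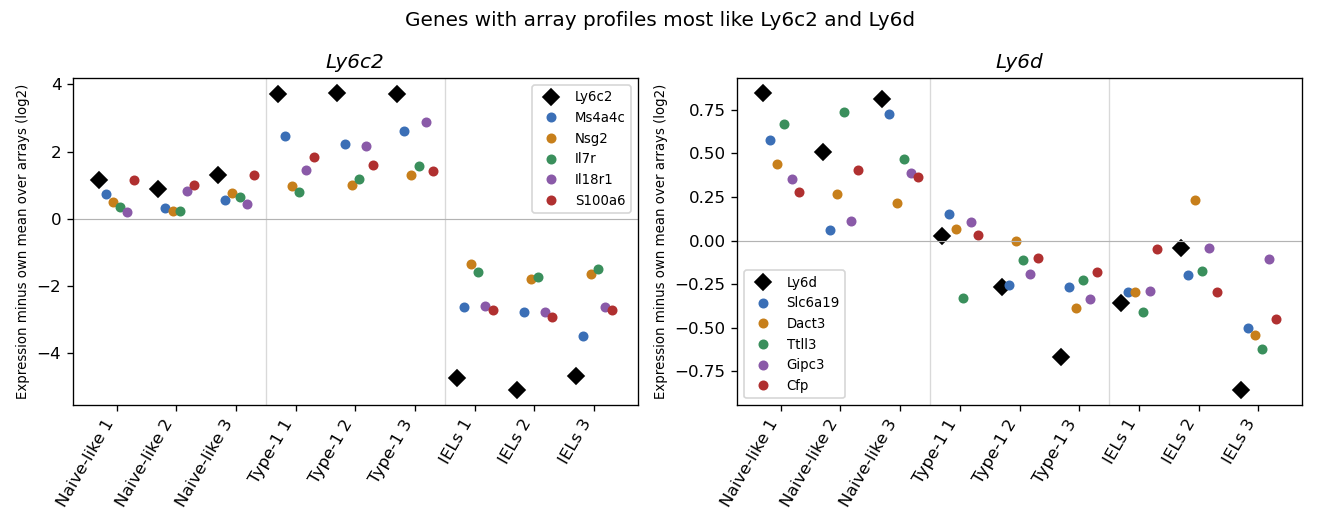
Log2 expression minus each gene's own mean over the 9 arrays (vertical axis) for Ly6c2 and Ly6d (black diamonds) and the 5 genes with the highest Pearson r to each (circles). Every position on the horizontal axis is 1 array. Ly6c2 and its 5 companions are below their mean on all IEL arrays and above it on all lymph node arrays.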

How the data were processed

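Log2 expression values, 41345 rows for each of 9 arrays, are used as the authors deposited them. The submitters' processing notes name oligo and RMA. Their versions and any filter are not given in the sources read. No column of another sample was present. The number of arrays limits the precision.

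Rows were named through the platform annotation, and 23521 had 1 symbol; 1082 of 22180 genes had several rows and the row of highest mean was used. No filter on low values was applied. Groups came from the sample titles. Tests used limma 3.58.1 under R 4.3.3 (1 mean per subset, eBayes, two-sided, Benjamini-Hochberg over 22180 genes, threshold 0.05), checked on simulated data. The members and gene lists were chosen with earlier results of these data known. Named genes were all members, other family genes that passed or had the 4 highest means, up to 4 of each list by size of difference, the 3 brightest of each marker list and the 5 closest profiles per member that passed the F test, predicted and receptor segment genes left out. Others are marked. Promoters were aligned with Biopython 1.88; plots used matplotlib 3.10.9. Alternatives, 22 in all, covered scaling, spread, rows, date code, replicate number and each array left out.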

Additional observations from a re-analysis of the deposited data

How the results depend on the processing

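The 18 differences of the 6 genes were recomputed under 22 alternatives, and 15 of them kept their side of the threshold in every one, all 3 of Ly6c2 among them. Leaving out 1 array moved Ly6c2 within -6.08 to -5.84 in IELs against Naive-like, 2.48 to 2.69 in Type-1 against Naive-like and -8.64 to -8.43 in IELs against Type-1 cells. The number of Ly6 genes called in IELs against Naive-like cells, 2, was 4 with array weights, with the date code as a term and with the replicate number as a block, and 1 with every row fitted, with only the arrays without the date code and with a minimum difference of 2-fold; it was 1 to 3 when 1 array was left out. In these fits Ly6c1 and Ly6k joined and Ly6d dropped out. In the F test the 2 genes became 1 with every row fitted and with only the arrays without the date code, 3 with the replicate block, and 1 to 2 with 1 array left out; the cause was not tested. Of all 18 differences, 6 changed sign in at least 1 alternative, and none of these 6 was called in any fit. Same-numbered arrays of different subsets had deviations that correlated at -0.01 to 0.38, over 0.1 in 6 of 9 pairs. The rule used asks for every pair over 0.1, and the numbers were not taken as pairs on that ground, though the 3 pairs of replicate 3, which share the date code, had the highest values (0.229 to 0.382). With the replicate block the adjusted p in limma for IELs against Naive-like cells was 0.0278 for Ly6c1 and 0.0428 for Ly6k, without it 0.0871 and 0.227. Over all genes the count of 1152 for IELs against Naive-like cells ran from 250 (2-fold minimum) to 1920 (array weights), that of 63 for Type-1 against Naive-like cells from 14 (2-fold minimum) to 87 (without Type-1 replicate 3), and that of 1140 for IELs against Type-1 cells from 204 (2-fold minimum) to 1525 (array weights). The count of 63 was 34 without Naive-like replicate 3, and that of 1140 was 732 without IELs replicate 2 and 724 without IELs replicate 3. With no detection calls, the level below which values are background is unknown.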
